A study of Mus musculus with 8 samples.

Results

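*L3mbtl2* and the other subunits of the PCGF6-PRC1 complex were followed on microarrays of mouse embryonic stem cells (ESCs) in which *L3mbtl2* was knocked down. The members were 10 genes, *L3mbtl2*, *Pcgf6*, *Mga*, *E2f6*, *Tfdp1*, *Cbx3*, *Ring1*, *Rnf2*, *Rybp* and *Wdr5*, chosen as parts of the complex and not by a measured change. A probe was assigned to a member through the gene symbol of its RefSeq accession, which gave 11 probes for the 10 genes (2 for *Cbx3* and 1 for each of the others) among 39429 probes and 19747 named genes on the array. The 11 probes were well above background on all 8 arrays, so that no member was lost to the filter on dim probes, which left 13649 genes in the test.

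Both groups were VV3 ESCs, a male mouse line carrying a Venus fluorescent transgene that reports expression of *Vasa* (*Ddx4*), kept on STO feeder cells. The control group (4 arrays) received the non-silencing AllStars siRNA, and the *L3mbtl2*-KD group (4 arrays) received siRNA against *L3mbtl2*. For the *L3mbtl2*-KD group the methods describe isolation of *Vasa*-positive cells by FACS, and for the control arrays they give no sort, so the siRNA and a selection on the reporter cannot be told apart. The 8 arrays lay on 2 slides, with replicates 1 and 2 of both groups on slide 1 and replicates 3 and 4 on slide 2. On both slides the control samples took positions 1 and 3 and the *L3mbtl2*-KD samples positions 2 and 4, so that position and group cannot be told apart.

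PRC1 complexes attach ubiquitin to a histone through the ligases RING1 (RING1A) or RNF2 (RING1B), and the PCGF subunit defines the kind of complex. In the PCGF6 form, the ligase works together with the MAX partner MGA, the E2F6 and DP1 pair, L3MBTL2 and the heterochromatin protein CBX3. In ESCs this complex is known for binding CpG-rich promoters of germ cell-related genes and holding them silent.

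Levels are given as log2 of the background-subtracted spot intensity minus the 75th percentile of the same array, so that 0 marks that percentile. They compare samples for 1 probe and not 1 probe with another. Fold changes, 95% intervals and adjusted p-values (Benjamini-Hochberg over all 23525 probes tested) are from limma, and an adjusted p under 0.05 is called a change. The RNA is from bulk cells, in which fewer expressing cells and less RNA per cell cannot be told apart.

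*L3mbtl2* encodes the subunit with malignant brain tumour repeats and is the siRNA target, so its level checks the labels. Its log2 level was 0.27, -0.18, -0.21 and -0.31 in control replicates 1 to 4, and -1.45, -1.26, -1.58 and -1.73 in *L3mbtl2*-KD replicates 1 to 4. The groups did not overlap, and the highest *L3mbtl2*-KD sample lay below the lowest control sample. Relative to the control mean, the *L3mbtl2*-KD samples retained 39.5%, 45.0%, 36.0% and 32.4% of the signal. The fitted log2 fold change was -1.40 (standard error 0.15, 95% interval -1.74 to -1.05, limma adjusted p = 0.000945), a mean of 37.9% of the control level with an interval of 29.8 to 48.2%. A two-sided exact permutation test over the 8 arrays gave p = 0.0286, the smallest that 4 against 4 samples allow. The log2 fold change was -1.40 on slide 1 (limma adjusted p = 0.0982, 2 samples a group) and -1.40 on slide 2 (limma adjusted p = 0.00874). Among all genes tested, 219 had a lower fitted log2 fold change than *L3mbtl2*.

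**Figure D1:**
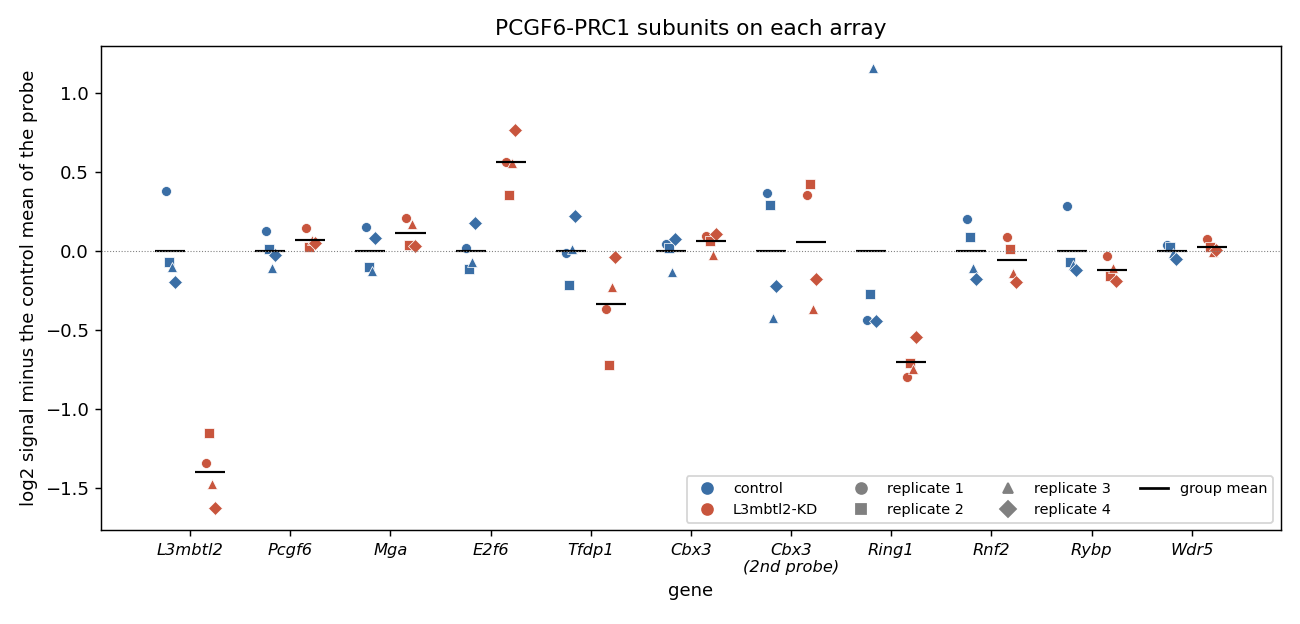
Each point is 1 array, plotted as log2 signal minus the control mean of its probe, with control samples in blue, *L3mbtl2*-KD samples in red, a marker shape for each replicate number and a black line at each group mean. The *L3mbtl2* points separate by group with means 1.40 apart, *E2f6* lies higher in all 4 *L3mbtl2*-KD samples, and control replicate 3 stands apart for *Ring1*.

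E2F6 and DP1 (the product of *Tfdp1*) form the sequence-specific pair of the complex, E2F6 being an E2F family member without an activation domain. The log2 level of *E2f6* was 1.41, 1.28, 1.32 and 1.56 in control replicates 1 to 4, and 1.95, 1.74, 1.95 and 2.15 in *L3mbtl2*-KD replicates 1 to 4. The groups did not overlap, and *E2f6* was higher in the *L3mbtl2*-KD sample of each of the 4 same-numbered pairs, by 0.47 to 0.63. *E2f6* rose with a log2 fold change of 0.56 (standard error 0.11, 95% interval 0.31 to 0.81, limma adjusted p = 0.011), or 1.47-fold. It stayed under 2-fold, and its interval in fold units ran from 1.24 to 1.75. The exact permutation p was 0.0286. Within the slides, with 2 samples a group, the log2 fold change was 0.51 (limma adjusted p = 0.269) and 0.61 (limma adjusted p = 0.0675), so the call was not reached on either slide alone.

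The log2 level of *Tfdp1* was 0.86, 0.66, 0.89 and 1.09 in control replicates 1 to 4, and 0.51, 0.15, 0.64 and 0.83 in *L3mbtl2*-KD replicates 1 to 4. The groups overlapped, while every *L3mbtl2*-KD sample lay below the control sample of its own number, by -0.50 to -0.24. The log2 fold change of -0.34 did not pass the test (standard error 0.16, 95% interval -0.70 to 0.018, limma adjusted p = 0.168; exact permutation p = 0.0571). With the replicate number as a block the same difference had a limma adjusted p of 0.0123. That call is read against a background in which 49.5% of all genes tested had an adjusted p under 0.05 with the replicate block.

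RING1 and RNF2 are the alternative ubiquitin ligases, and RYBP is a partner that binds them in the variant complexes. The log2 level of *Ring1* was -2.64, -2.48, -1.05 and -2.65 in control replicates 1 to 4, and -3.00, -2.91, -2.95 and -2.75 in *L3mbtl2*-KD replicates 1 to 4. Control replicate 3 stood far above the other control samples, whose mean was -2.59, and the lowest control and the highest *L3mbtl2*-KD sample differed little. The log2 fold change of -0.70 did not pass the test (standard error 0.33, 95% interval -1.46 to 0.062, limma adjusted p = 0.18). Without control replicate 3 it was -0.32 (limma adjusted p = 0.0924), less than 1.5-fold and again not called. The groups did not overlap, and the exact permutation p was 0.0286.

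*Rnf2* had a log2 fold change of -0.061 (standard error 0.11, limma adjusted p = 0.755), with an interval from 0.802-fold to 1.15-fold. The same-numbered pairs of *Rnf2* differed by -0.11 to -0.021. *Rybp* had a log2 fold change of -0.12 (standard error 0.11, limma adjusted p = 0.468), and its control replicate 1, at 4.40, lay above the other 7 arrays, which ranged from 3.93 to 4.09. Without that sample the log2 fold change of *Rybp* was -0.029. For both genes the difference between the groups was smaller than the spread between samples.

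PCGF6 names the complex, and MGA carries a T-box and a helix-loop-helix domain through which it pairs with MAX. The log2 level of *Pcgf6* was between 1.65 and 1.88 in control samples and between 1.78 and 1.90 in *L3mbtl2*-KD samples, and the groups overlapped. Its log2 fold change was 0.071 (standard error 0.080, limma adjusted p = 0.582), and the 95% interval of 0.925-fold to 1.19-fold lay within 1.2-fold of no change. *Mga* ranged from -0.30 to -0.022 in control samples and from -0.15 to 0.031 in *L3mbtl2*-KD samples. Its log2 fold change of 0.11 did not pass the test (limma adjusted p = 0.464, interval 0.928-fold to 1.26-fold), and it was higher in 3 of the 4 same-numbered pairs.

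WDR5, a WD-repeat protein shared with histone methyltransferase complexes, had the smallest spread. The log2 level of *Wdr5* was between 3.49 and 3.57 in control samples and between 3.53 and 3.61 in *L3mbtl2*-KD samples, with a log2 fold change of 0.022 (standard error 0.070, limma adjusted p = 0.861). CBX3 (HP1 gamma) binds methylated histone tails and was measured by 2 probes. On its brighter probe the log2 level of *Cbx3* was 4.43, 4.41, 4.26 and 4.46 in control replicates 1 to 4, and 4.49, 4.45, 4.36 and 4.50 in *L3mbtl2*-KD replicates 1 to 4. On its second probe the levels ran from 2.29 to 3.08 in control samples and from 2.35 to 3.14 in *L3mbtl2*-KD samples. The second probe was higher on slide 1 than on slide 2 in both groups, by 0.66 on average over the 8 arrays against 0.050 for the brighter probe. A slide difference of at least that size was found for 3.74% of all probes tested. The log2 fold change was 0.059 and 0.056 on the probes (limma adjusted p = 0.657 and 0.898), and the 95% interval of the second probe, -0.49 to 0.60, was wider than that of the brighter probe, -0.13 to 0.24. Under scaling on housekeeping genes *Cbx3* and *Wdr5* took the opposite sign, and so no direction is given for them.

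**Figure D2:**
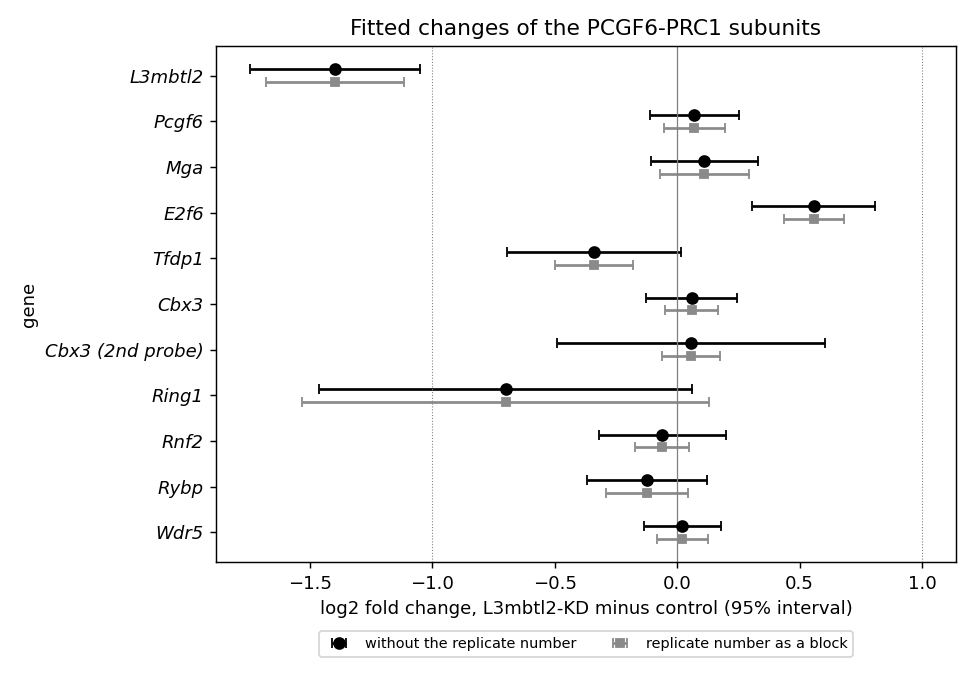
Fitted log2 fold change (*L3mbtl2*-KD minus control) of each member probe with its 95% interval, from the fit without the replicate number (black) and with the replicate number as a block (grey); dotted lines mark 2-fold. The black intervals of *L3mbtl2* and *E2f6* lie off 0, and the grey interval of *Tfdp1* does too.

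In all, 2 of the 10 members had an adjusted p under 0.05, against 22% of all genes tested. In the upward direction this was 1 member, *E2f6*, against 10.3% of all genes, and in the downward direction 1 member, the siRNA target *L3mbtl2*, against 11.7%. A change over 2-fold with an adjusted p under 0.05 was reached by 1 of 10 members, against 5.7% of all genes. No member was over 2-fold higher, against 2.49% of all genes, and *L3mbtl2* was the 1 member over 2-fold lower, against 3.21%. The groups did not overlap for 3 of 10 members (*L3mbtl2*, *E2f6* and *Ring1*), against 26.5% of all genes on the probe that stands for each gene. With the replicate block 3 of 10 members had an adjusted p under 0.05 (*L3mbtl2*, *E2f6* and *Tfdp1*), against the 49.5% given above. The siRNA target itself is among the members counted. The median log2 fold change was -0.019 over the 10 members and -0.011 over all genes tested, and 6 of 10 members lay within 1.2-fold of the control level, against 58.3% of all genes.

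The members varied among themselves in spread. The pooled standard deviation within groups ran from 0.038 for *Wdr5* to 0.55 for *Ring1*, with a median of 0.15 over the 10 members and 0.18 over all genes tested. By same-numbered pairs, *L3mbtl2*, *Tfdp1*, *Ring1* and *Rybp* were lower in the *L3mbtl2*-KD sample of 4 of 4 pairs, and *Pcgf6* and *E2f6* were higher in 4 of 4. The pairs of *Rnf2* were all lower too and those of *Cbx3* (brighter probe) all higher, but each gene took the opposite sign under 1 of 20 alternatives, so no direction is given for either. With scaling on housekeeping genes the log2 fold change of *Pcgf6* was 0.0067, so that its 4 of 4 depends on the scaling. For *Pcgf6*, *Ring1*, *Rybp*, *Rnf2* and *Cbx3* the pair differences did not pass the test with the replicate block (limma adjusted p = 0.289, 0.139, 0.184, 0.295 and 0.296). Genes with 4 of 4 pairs in the same direction were not counted over all genes tested, so the pair counts have no background share. They describe each gene and are not read as a result about the members.

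**Figure D3:**
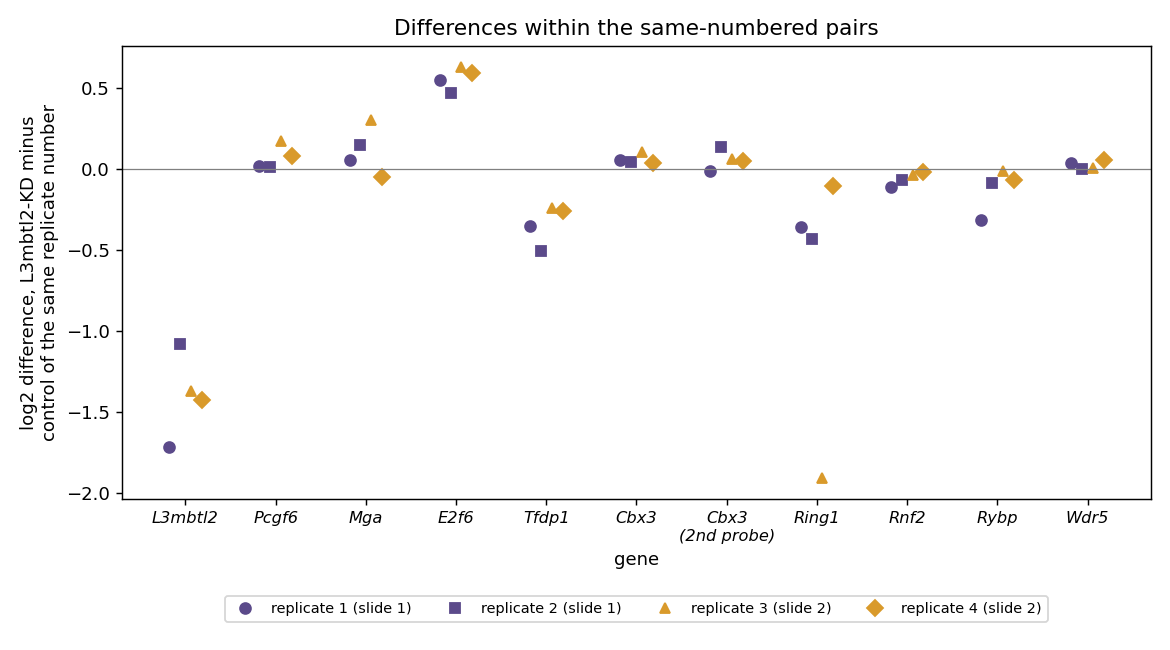
Difference in log2 signal between the *L3mbtl2*-KD and the control sample of the same replicate number, for each member probe, with 1 point a pair and the slides in separate colours. The 4 points of *L3mbtl2* lie between -1.72 and -1.08 and those of *E2f6* between 0.47 and 0.63, and the lowest point of *Ring1*, at -1.90, is the pair of replicate 3.

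Other proteins that associate with the complex were taken as a list of 5 genes, *Max*, *Hdac1*, *Hdac2*, *Ehmt1* and *Ehmt2*. Of these, 1 was higher and 1 lower at an adjusted p under 0.05, against 22% of all genes called either way, and none was over 2-fold. *Hdac2*, a histone deacetylase, had a mean log2 level of -2.57 ± 0.046 (SD, n = 4) in control and -2.21 ± 0.069 (SD, n = 4) in *L3mbtl2*-KD samples, and rose with a log2 fold change of 0.36 (standard error 0.075, limma adjusted p = 0.0131). *Ehmt2*, which encodes the histone methyltransferase G9a, fell from 5.32 ± 0.075 (SD, n = 4) to 4.97 ± 0.024 (SD, n = 4), a log2 fold change of -0.35 (standard error 0.074, limma adjusted p = 0.0149). Both calls were lost in the fits within a slide (limma adjusted p = 0.37 and 0.0815 for *Hdac2*, 0.309 and 0.111 for *Ehmt2*). The log2 fold changes within slides 1 and 2 were 0.31 and 0.41 for *Hdac2* and -0.39 and -0.31 for *Ehmt2*. Within slide 1 the number of genes called was 0, so the loss there says nothing about these 2 genes. With the replicate block, which called 49.5% of all genes tested, 3 of the 5 were higher and 1 lower.

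Of 28 subunits of other PRC1 complexes, such as the remaining PCGF and CBX proteins, 25 were tested, and 1 was higher and 0 lower at an adjusted p under 0.05 in limma, against 22% of all genes called either way. The median log2 fold change was -0.021 against -0.011 over all genes tested. The gene called was *Yaf2*, the paralogue of *Rybp*, named after its values were seen. *Yaf2* had a log2 fold change of 0.41 (limma adjusted p = 0.0183) on its brighter probe and 0.22 (limma adjusted p = 0.103) on its other probe, and its call was lost under 5 of 20 alternatives, which were the fits within slide 1 (limma adjusted p = 0.318) and slide 2 (0.116), no filter on dim probes (0.0512), and leaving out *L3mbtl2*-KD replicate 4 (0.0504) or control replicate 3 (0.0553). *Cbx7* (log2 fold change -0.73, limma adjusted p = 0.352) and *Bcorl1* (0.28 on its brighter and 0.66 on its other probe, limma adjusted p = 0.477 and 0.479) did not pass, and the brighter probe of *Bcorl1* was called with the replicate block (limma adjusted p = 0.0131). With the replicate block 5 of the 25 were higher and 2 lower, against 49.5% of all genes called with that block.

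Paralogues of the members were a list of 16 genes, of which 14 were tested. *L3mbtl1* and *L3mbtl4*, the remaining L3MBTL genes beside *L3mbtl3*, were not tested, since no probe of either was well above background throughout a group. At an adjusted p under 0.05, 5 paralogues were lower and 1 higher, against 11.7% and 10.3% of all genes tested, and the median log2 fold change was -0.28 against -0.011 over all genes. *Sfmbt2*, which also carries malignant brain tumour repeats, had a mean log2 level of -0.60 ± 0.17 (SD, n = 4) in control and -1.65 ± 0.26 (SD, n = 4) in *L3mbtl2*-KD samples, a log2 fold change of -1.06 (standard error 0.15, limma adjusted p = 0.00255). *L3mbtl3* fell with a log2 fold change of -0.58 (standard error 0.11, limma adjusted p = 0.00815), and the groups did not overlap for either gene. The other lower paralogues, named after their values were seen, were *E2f2* (log2 fold change -0.43), *E2f7* (-0.38) and *Cbx5* (-0.34), and their calls were lost under 7, 3 and 9 of 20 alternatives. A second probe of *Cbx5* had a log2 fold change of 0.054 (limma adjusted p = 0.687) and a second probe of *E2f7* one of -0.14 (limma adjusted p = 0.644), so the calls rest on 1 of 2 probes. The higher paralogue was *Sfmbt1* (log2 fold change 0.52, limma adjusted p = 0.0399), whose call was lost under 11 of 20 alternatives and was not made on its other probe (0.15, limma adjusted p = 0.549). With the replicate block 8 of the 14 were lower and 3 higher, again against 49.5% of all genes called either way. The call of *Sfmbt2* was lost under 1 alternative, the fit within slide 1, and that of *L3mbtl3* under both fits within a slide.

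Germ cell-related genes were a list of 18, of which 16 were tested. The list is called germ-line targets here, although a role of the complex at *Sycp3* is not established. *Stag3* and *Tdrd1* were not well above background on any array. Of the 16, 12 were higher and 1 was lower at an adjusted p under 0.05 (10.3% and 11.7% of all genes), and 10 were over 2-fold higher, with a median log2 fold change of 1.51 against -0.011 over all genes tested. Several of these genes were named by the study for their change in such cells, and *Ddx4* is the gene of the reporter used for the sort, so the count is not independent evidence of a direction. The largest log2 fold changes were 8.21 for *Tex101*, 3.65 for *Zcwpw1*, 3.21 for *Tdrkh*, 2.83 for *Ddx4*, 2.48 for *Mael* and 1.79 for *Sycp1* (limma adjusted p between 4.88e-06 and 0.00264). *Rnf17* (0.91) and *Smc1b* (0.68) were higher and under 2-fold (limma adjusted p = 0.000522 and 0.00329). *Sycp3*, a synaptonemal complex gene, had a log2 fold change of -0.11 (limma adjusted p = 0.629), and *Hormad1*, a chromosome axis gene, fell by 1.17 on the log2 scale (limma adjusted p = 0.000641); *Sycp3*, *Hormad1* and, below, *Taf7l* were chosen after their values were seen.

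**Figure D4:**
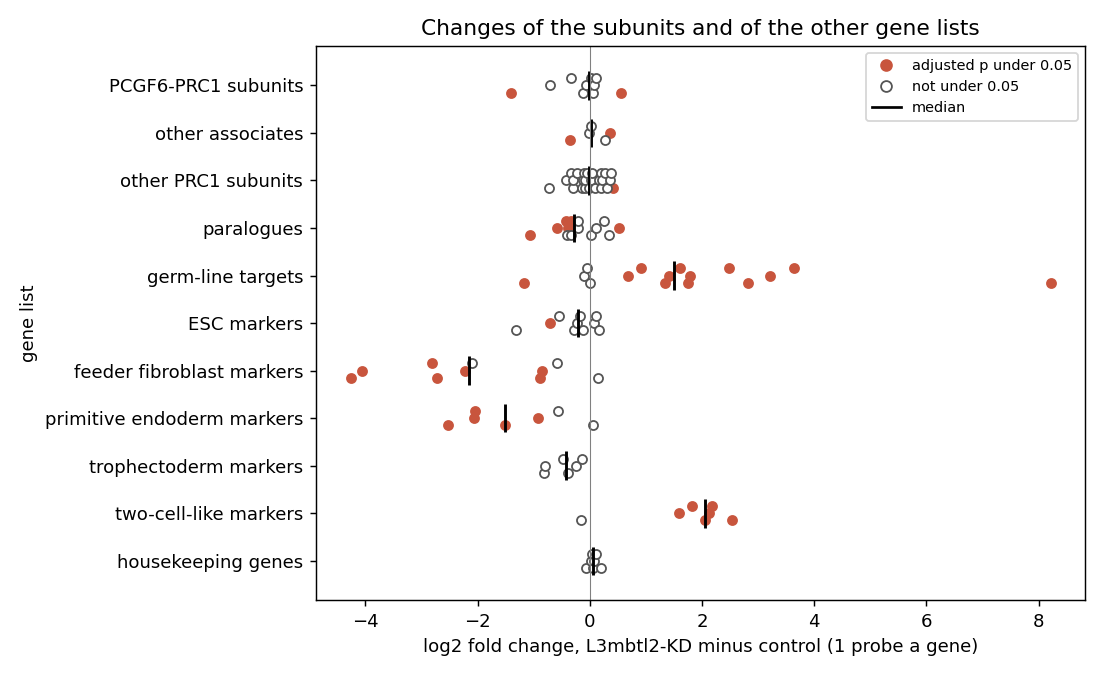
Log2 fold change (*L3mbtl2*-KD minus control) of each gene of the lists on 1 probe a gene, filled where the adjusted p was under 0.05, with a black line at the median of each list. The 10 subunits run from -1.40 to 0.56 around a median of -0.019, while the germ-line targets have a median of 1.51 and the feeder fibroblast markers one of -2.16. The median of the feeder markers includes *Dcn* and *Col3a1*, which were not well above background on any *L3mbtl2*-KD array.

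Promoter windows, 250 bases before to 50 after each transcription start in RefSeq (GRCm38.p6), were searched on both strands for CACGTG (the E-box bound by MAX pairs), GCGGGAA (an E2F motif) and AGGTGTGA (a T-box element). A window was matched for 9 of the 10 members, all but *Rybp*, and for 16 of the 18 germ-line targets. An E-box was found for 1 of 9 members (*Tfdp1*), for 10 of 16 germ-line targets and for 8.09% of all genes with a window (7.15% of all windows). The E2F motif was found for 0 of 9 members, 6 of 16 targets and 5.29% of all genes (4.6% of windows), and the T-box element for 0 of 9 members, 1 of 16 targets and 1.48% of all genes (1.28% of windows). The shares describe these windows only.

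The windows of the members whose level or call moved are printed first, 5′ to 3′ on the strand of the gene, with motif matches in capitals. *L3mbtl2* (chr15:81663639-81663938, plus strand) and *E2f6* (chr12:16810715-16811014, plus strand) hold none of the motifs, and *Tfdp1* (chr8:13338501-13338800, plus strand) has 1 E-box (and none in a second, alternative window), which starts 231 bases before the transcription start. The GC content of the windows was 55.7% for *L3mbtl2*, 68.0% for *E2f6* and 78.0% for *Tfdp1*.
L3mbtl2: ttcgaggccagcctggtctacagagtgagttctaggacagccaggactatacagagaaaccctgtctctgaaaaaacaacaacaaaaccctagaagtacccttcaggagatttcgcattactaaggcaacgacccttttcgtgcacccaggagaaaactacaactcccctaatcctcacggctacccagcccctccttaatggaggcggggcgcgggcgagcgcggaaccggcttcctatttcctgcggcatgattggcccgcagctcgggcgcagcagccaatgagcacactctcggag
E2f6: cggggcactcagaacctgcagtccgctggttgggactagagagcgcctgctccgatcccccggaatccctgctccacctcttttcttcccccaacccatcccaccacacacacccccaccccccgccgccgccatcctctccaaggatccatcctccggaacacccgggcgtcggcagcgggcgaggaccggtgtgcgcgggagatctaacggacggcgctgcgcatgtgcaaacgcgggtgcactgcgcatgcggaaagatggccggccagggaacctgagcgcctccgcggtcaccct
Tfdp1: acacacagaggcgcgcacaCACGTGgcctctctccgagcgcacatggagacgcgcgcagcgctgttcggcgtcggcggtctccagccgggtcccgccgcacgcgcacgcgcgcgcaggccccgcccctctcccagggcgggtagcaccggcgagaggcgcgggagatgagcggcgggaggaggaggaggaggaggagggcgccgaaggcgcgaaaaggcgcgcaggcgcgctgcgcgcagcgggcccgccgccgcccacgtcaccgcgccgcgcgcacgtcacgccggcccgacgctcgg

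Windows of germ-line targets follow for comparison, for genes that rose (*Ddx4*, *Mael* and *Taf7l*) and for *Hormad1*, which fell. They were chosen for their motifs, and the windows of *Tex101*, *Zcwpw1* and *Tdrkh*, which had the largest rises, hold none of the 3 motifs. *Ddx4* (chr13:112652261-112652560, minus strand) has the E2F motif and an E-box that starts 29 bases before the transcription start, and *Mael* (chr1:166238695-166238994, minus strand) and *Taf7l* (chrX:134476441-134476740, minus strand) have 1 E-box each. *Hormad1* (chr3:95559427-95559726, plus strand) has the E2F motif and 2 E-boxes, so that the E-box was present in windows of genes that moved in opposite directions. Of the other targets with an E-box, *Sycp1* rose, *Sycp3*, *Slc25a31* and *Mov10l1* were not called, and *Stag3* and *Tdrd1* were not tested.
Ddx4: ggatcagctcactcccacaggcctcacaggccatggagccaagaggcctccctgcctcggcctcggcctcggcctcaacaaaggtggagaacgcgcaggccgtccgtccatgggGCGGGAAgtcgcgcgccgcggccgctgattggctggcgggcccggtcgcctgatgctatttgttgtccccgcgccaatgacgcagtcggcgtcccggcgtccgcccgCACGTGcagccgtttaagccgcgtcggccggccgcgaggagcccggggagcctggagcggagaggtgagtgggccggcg
Mael: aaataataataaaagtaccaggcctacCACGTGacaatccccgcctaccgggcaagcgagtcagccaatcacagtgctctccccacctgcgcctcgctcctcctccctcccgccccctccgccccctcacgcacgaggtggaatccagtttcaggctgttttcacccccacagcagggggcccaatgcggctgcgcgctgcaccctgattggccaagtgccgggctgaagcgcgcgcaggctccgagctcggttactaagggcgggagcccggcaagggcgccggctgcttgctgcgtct
Taf7l: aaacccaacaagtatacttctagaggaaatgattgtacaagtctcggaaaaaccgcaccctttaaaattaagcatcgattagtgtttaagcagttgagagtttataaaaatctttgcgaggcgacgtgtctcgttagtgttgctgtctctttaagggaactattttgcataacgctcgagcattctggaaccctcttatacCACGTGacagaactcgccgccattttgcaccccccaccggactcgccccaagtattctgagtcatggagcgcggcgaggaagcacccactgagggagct
Hormad1: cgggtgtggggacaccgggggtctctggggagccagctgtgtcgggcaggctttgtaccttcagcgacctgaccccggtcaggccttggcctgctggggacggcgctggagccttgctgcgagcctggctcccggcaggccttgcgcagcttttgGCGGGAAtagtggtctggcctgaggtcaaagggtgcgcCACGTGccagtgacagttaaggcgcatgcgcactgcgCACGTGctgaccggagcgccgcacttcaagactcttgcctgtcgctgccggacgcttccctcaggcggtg

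Of the genes whose printed window holds a single E-box and no E2F motif, *Mael* had a log2 fold change of 2.48, *Taf7l*, a germ-line paralogue of a general transcription factor subunit, one of 1.75 (limma adjusted p = 0.000144), and *Tfdp1* one of -0.34, which did not pass the test.

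**Figure D5:**
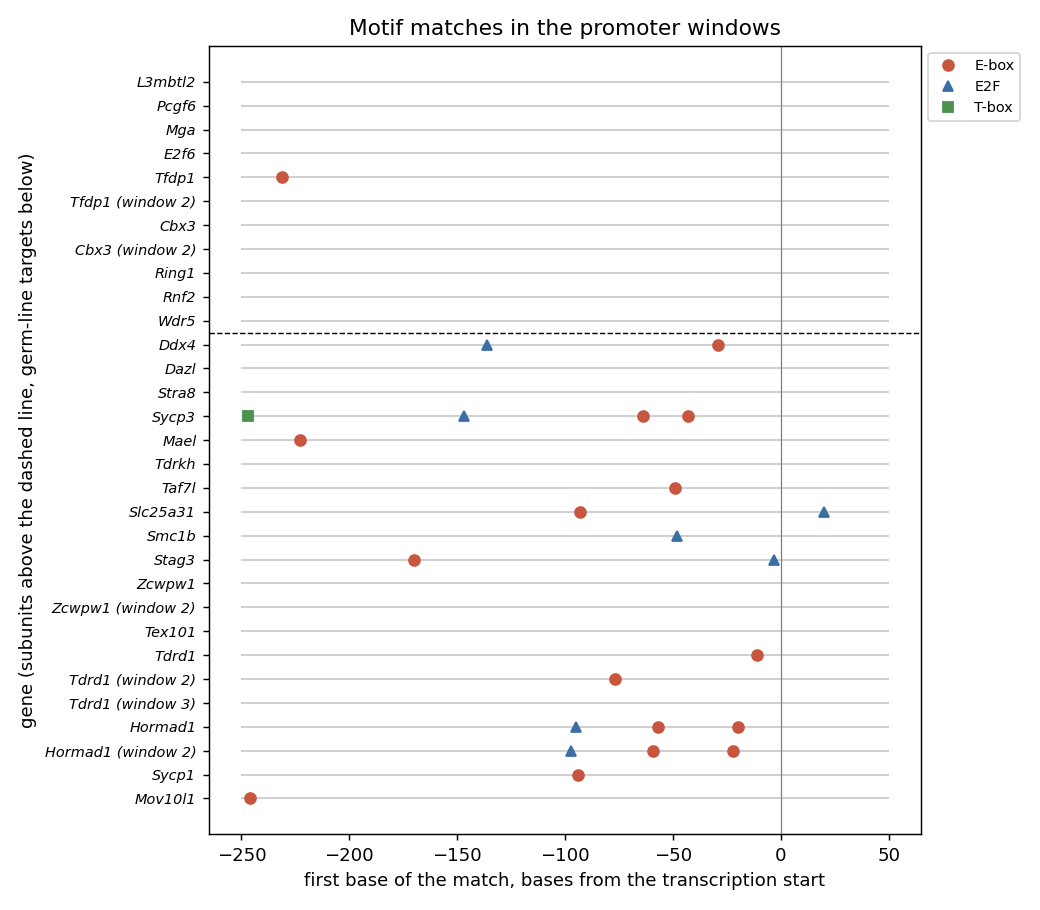
First base of each motif match relative to the transcription start, in bases, for the promoter windows of the members (above the dashed line) and of the germ-line targets (below it); grey lines span the window. A match is drawn for 1 of 9 members, the E-box of *Tfdp1* at -231, and the 2 windows of *Hormad1* lie 2 bases apart and show the same sites.

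Markers of other cells were measured beside the members, as summed linear signal in units of the 75th percentile of each array, with the brightest probe of each gene. Such a sum follows its brightest probes and does not rank genes by transcript number. Of all genes tested, 10.3% were called higher and 11.7% lower, beside the counts of each list. Of 10 ESC markers tested, 1 was lower at an adjusted p under 0.05 and 0 were higher in limma, and the summed signal was 334, 348, 329 and 325 in control replicates 1 to 4 and 319, 353, 312 and 332 in *L3mbtl2*-KD replicates 1 to 4. The probe of *Dppa5a* was the brightest, and the 1 lower gene was *Klf4* (log2 fold change -0.70, limma adjusted p = 0.0274; lost under 6 of 20 alternatives). The median log2 fold change of the ESC markers was -0.20, and *Nanog* had the lowest, -1.32, which did not pass the test (limma adjusted p = 0.0962). It ran from -2.11 within slide 1 to -0.52 within slide 2, and was called only without *L3mbtl2*-KD replicate 4 (-1.74, limma adjusted p = 0.0271). With the replicate block 3 of the 10 were lower and 1 higher, against 49.5% of all genes called either way. Of 7 housekeeping genes none was called in limma, with the probe of *Ppia* the brightest and summed signals of 1026 to 1108 in control and 1035 to 1169 in *L3mbtl2*-KD samples. The largest differences among them, for *Tbp* (log2 fold change 0.20, limma adjusted p = 0.207) and *Rplp0* (0.12, limma adjusted p = 0.407), did not pass, and *Tbp* was called higher with the replicate block (limma adjusted p = 0.025).

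Of 12 feeder fibroblast markers 10 were tested, and 7 were lower and 0 higher. When only probes above background on all arrays were tested, 5 were lower. The median log2 fold change over the 10 was -2.16, and genes that were dim on *L3mbtl2*-KD arrays are included in it. The summed signal of the list was 51.2, 61.9, 58.0 and 54.3 in control replicates 1 to 4 and 27.3, 35.3, 31.3 and 26.0 in *L3mbtl2*-KD replicates 1 to 4, and the probe of *Fn1*, which other cells express too, gave 80.3% of the summed signal in control samples. *Lum* and *Postn* were not well above background on any array, and *Dcn* and *Col3a1* were not well above background on any *L3mbtl2*-KD array. *Dcn* was at least 12.1-fold lower and *Col3a1* at least 7.81-fold lower (limma adjusted p = 0.000369 and 0.0012), where each *L3mbtl2*-KD array enters with the dimmest signal that still counted as well above background there, or with the measured signal if higher. These bounds hold for the main background handling only, and with normexp the log2 fold changes were -1.88 and -1.55, both still called. *Col1a2* (log2 fold change -2.81), *Acta2* (-2.72) and *Col1a1* (-2.22) were lower too (limma adjusted p = 0.00439, 0.00302 and 0.00619), while *S100a4* (-2.09, limma adjusted p = 0.261) did not pass. The other probe of *S100a4* (-1.81, limma adjusted p = 0.0583) was called with the replicate block (limma adjusted p = 0.0426). With that block 8 of the 10 markers tested were lower, against 49.5% of all genes called either way.

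Of 7 primitive endoderm markers 5 were lower and 0 higher, and 2 were lower when only probes above background on all arrays were tested. The summed signals were 1.85, 2.20, 1.64 and 2.05 in control replicates 1 to 4 and 1.09, 1.91, 1.44 and 1.17 in *L3mbtl2*-KD replicates 1 to 4. The probe of *Gata6* was the brightest of these. *Dab2*, *Sox17*, *Pdgfra* (log2 fold change -1.50, range over the alternatives -1.90 to -0.80) and *Gata4* (-0.92) were lower (limma adjusted p = 0.00206, 0.0059, 0.00646 and 0.00516), and *Sox7* (-0.56, limma adjusted p = 0.11) did not pass but was called lower with the replicate block (limma adjusted p = 0.0132), under which 6 of the 7 were lower, against 49.5% of all genes called either way. *Dab2* was well above background on 1 of 4 *L3mbtl2*-KD arrays, so that the size of its fall is given only as a range of -2.81 to -0.95 over the alternatives. *Sox17* was so on 3, with a range of -2.58 to -1.10, and *Foxa2* on 0, and *Foxa2* was lower in the main fit (limma adjusted p = 0.00235) but ran from -2.30 to -0.41 over the alternatives, and its call was lost with normexp (limma adjusted p = 0.0763) and within slide 1 (limma adjusted p = 0.135). Of 6 trophectoderm markers none was called in limma, with the probe of *Krt18* the brightest. Their summed signal was 3.94 to 5.56 in control and 2.74 to 5.16 in *L3mbtl2*-KD samples, lower in the *L3mbtl2*-KD sample of 4 of 4 same-numbered pairs. *Krt8* (log2 fold change -0.81, limma adjusted p = 0.145) and *Cdx2* (-0.81, limma adjusted p = 0.306) did not pass without the replicate block. Both were called lower with it (limma adjusted p = 0.0219 and 0.043). These were 2 of 6 trophectoderm markers, while the block called 3544 of the 13649 genes tested lower and 49.5% either way.

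Of 7 two-cell-like markers tested 6 were higher and 0 lower. Their summed signal was 25.4, 30.0, 16.8 and 18.0 in control replicates 1 to 4 and 92.9, 90.9, 50.5 and 51.2 in *L3mbtl2*-KD replicates 1 to 4, with the probe of *Zscan4f* the brightest (log2 fold change 2.05, limma adjusted p = 0.00423). *Usp17la* (2.53), *Zscan4c* (2.18), *Tcstv1* (2.12) and *Tcstv3* (1.82) were higher as well (limma adjusted p = 0.00209, 0.00545, 0.00908 and 0.0184), and *Zfp352* (-0.15, limma adjusted p = 0.389) did not pass. The call of *Tcstv3* was lost within slide 1 (2.15, limma adjusted p = 0.0994) and slide 2 (1.49, limma adjusted p = 0.129). The number of markers called higher was 0 within slide 1 and 4 within slide 2. A second probe of *Usp17la* had a log2 fold change of 0.28 (limma adjusted p = 0.328), so that call rests on 1 of 2 probes. In the group in which *L3mbtl2* was lower and *E2f6* higher, the summed signals of the feeder, primitive endoderm and trophectoderm lists were thus lower and that of the two-cell-like list higher in 4 of 4 same-numbered pairs, with overlap between the groups for primitive endoderm and trophectoderm. Their part in the changes of the members was not tested.

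The genes with a profile most like that of *L3mbtl2* were sought over the 8 arrays, by the root mean square difference in log2 level after each gene was centred on its control mean. These were *Cobl* (0.14), *Nupr1* (0.14), *Slc41a3* (0.14), *Mpzl2* (0.15), *Camk1d* (0.16) and *Tex12* (0.17). Their log2 fold changes ran from -1.36 for *Cobl* to -1.22 for *Mpzl2*, beside -1.40 for *L3mbtl2*. Over the alternatives the log2 fold change of *Tex12* ran from -1.35 to -0.43. No other member was among the genes with these profiles. This follows from the measure, which keeps the size of the change. The other members had log2 fold changes from -0.70 (*Ring1*) to 0.56 (*E2f6*), so their absence adds nothing about them.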

How the data were processed

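RNA of 8 samples (4 control, 4 *L3mbtl2*-KD) was measured on one-colour Agilent arrays. The authors deposited the intensity of each spot as the scanner software gave it after background subtraction, not normalized between arrays. They also deposited log2 values, which tracked the same intensities after a shift of each array and a centring of each probe. Here intensities were put on a log2 scale and the 75th percentile of the array was subtracted. Spots that were controls or carried an outlier flag did not enter, and a probe took the mean of its spots. Of 39429 probes, 26049 were named through RefSeq accessions (GRCm38.p6, names only). The 23525 probes that were well above background throughout 1 group or both were fitted in limma 3.58.1 (R 4.3.3; lmFit, eBayes), and p-values were adjusted by Benjamini-Hochberg. A gene was called where at least 1 probe passed, and single values of a gene are those of its brightest probe. Per array, 59.5 to 66.6% of spots were well above background.

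Replicate numbers are shared by both groups. After subtraction of the group means, samples of the same number correlated at 0.38 to 0.58 over 23440 probes and samples of different numbers at -0.44 to 0.25, so the numbers pair the samples, as inferred from the values. The methods state biological replicates and no block. The exact permutation tests exchanged labels over all 8 arrays and did not use this pairing.

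Genes named are all members, from each list up to 6 genes with an adjusted p under 0.05 and over 2-fold and up to 2 that missed either threshold, by size of change, and the 6 profiles most like *L3mbtl2*. The gene with the brightest probe of each marker list is named too. Other genes named with values were chosen after their values were seen, and 1 gene that the rule picks is not reported here. The members and lists were chosen with earlier results of these data known. Alternatives were normexp background correction on median spot intensities (offset 50), quantile normalization, the deposited log2 table, other filters on dim probes, slide or replicate number as a block, fits within slides, an intensity trend, the mean of the probes of a gene, leaving out each sample, and scaling on housekeeping genes. The fit was tested on simulated data with independent samples and 200 probes changed. It recovered 32% of 50 probes changed by 1.5-fold and 72% of 50 changed by 2-fold, with 6 false calls among 23525 probes. The real samples are paired by number and 22% of all genes tested were called, so these rates hold for the simulated setting only. In that setting a change near 1.5-fold was often missed. How often the fit misses such a change in the real data was not tested.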

Additional observations from a re-analysis of the deposited data

Results flagged for a closer look

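Among 128 groups of 4 samples of the members and of the other genes named, 13 had 1 sample far from the others, and chance flags about 1 in 20 groups (6.4 here). The gap of that sample to its nearest neighbour, as a share of the range of the group, was 0.894 for *Ring1* in control samples, where replicate 3 was at -1.05 and the others averaged -2.59 on the log2 scale. It was 0.873 for *Rybp* in control samples, where replicate 1 was at 4.40 and the others averaged 4.03.

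For the other genes the share was 0.877 for *Hdac2* in control samples (replicate 3), 0.856 for *Yaf2* in *L3mbtl2*-KD samples (replicate 4), 0.891 for *E2f7* in *L3mbtl2*-KD samples (replicate 1), 0.903 for *Dab2* in *L3mbtl2*-KD samples (replicate 1), 0.892 for *Cbx7* in control samples (replicate 2), 0.894 for *Nanog* in control samples (replicate 2), 0.865 for *Sox17* in control samples (replicate 3), 0.889 for *Tbp* in *L3mbtl2*-KD samples (replicate 1), 0.857 for *Rplp0* in *L3mbtl2*-KD samples (replicate 3), 0.834 for *Slc41a3* in *L3mbtl2*-KD samples (replicate 2) and 0.926 for *Camk1d* in *L3mbtl2*-KD samples (replicate 4). Without the sample in question *Yaf2* had a limma adjusted p of 0.0504, and the calls of *Hdac2* (limma adjusted p = 0.0463), *E2f7*, *Dab2*, *Sox17*, *Slc41a3* and *Camk1d* were kept, and *Cbx7* (log2 fold change -0.15), *Nanog* (-0.95), *Tbp* (0.15) and *Rplp0* (0.16) were still not called.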

How the results depend on the processing

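The log2 fold change of *L3mbtl2* stayed between -1.48 and -1.19 over 20 alternatives, and its call was lost under 1, the fit within slide 1 (-1.40). That fit, with 2 samples a group, had 0 genes with an adjusted p under 0.05 in limma (2325 at an unadjusted p under 0.05). The fit within slide 2, with as many samples, had 1662, and the cause of the difference was not tested. *E2f6* stayed between 0.49 and 0.63 and lost its call within slide 1 (0.51) and slide 2 (0.61). Leaving out each sample gave *L3mbtl2* -1.48 to -1.27 and *E2f6* 0.49 to 0.63, with both calls kept. The number of members with an adjusted p under 0.05 was 0 within slide 1 and 1 within slide 2, and that over 2-fold was 0 within slide 1.

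The replicate block gave *Tfdp1* (log2 fold change -0.34) a limma adjusted p of 0.0123, against 0.0123 to 0.398 over its alternatives, and changed no other call of a member. Genes with an adjusted p under 0.05 numbered 6762 in this paired fit, 1866 with no filter on dim probes, 0 within slide 1, 1662 within slide 2, and 1782 to 2975 when each sample was left out, against 3009. Without control replicate 3 there were 1782, and without *L3mbtl2*-KD replicate 4 there were 1927. Genes over 2-fold numbered 194 higher and 159 lower with normexp, 0 and 0 within slide 1, and 290 lower with probes above background on all arrays, against 340 and 438. The share of higher among these was 43.7%, against 55.0% with normexp, 51.4% with quantile normalization (387 higher, 366 lower) and 37.7% with scaling on housekeeping genes, so that balance depended on the processing.

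Values that changed sign were near 0. With scaling on housekeeping genes these were *Cbx3* (-0.0055, and -0.0081 on the second probe) and *Wdr5* (-0.043), and with quantile normalization *Wdr5* (-0.020). Leaving out samples gave the second *Cbx3* probe -0.086 to 0.20 and *Rnf2* -0.12 to 0.0060. The causes of these shifts were not tested. All member probes were well above background on all 8 arrays, and the number of arrays limits the precision.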
